A study of Mus musculus with 16 samples.

Results

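The cyclin-dependent kinase (CDK) inhibitor genes of the mouse were followed in ES cells that had or lacked Cfp1 and were left untreated or exposed to doxorubicin. The members were taken by symbol, as the 3 genes of the Cip/Kip family (Cdkn1a, Cdkn1b and Cdkn1c) and the 4 of the INK4 family (Cdkn2a, Cdkn2b, Cdkn2c and Cdkn2d). These are 7 of the 22375 genes in the deposited tables. RNA came from 4 groups of ES cells, which are WT cells of the E14TG2a line and Cfp1-/- cells, each without drug and with doxorubicin. The labels give strain 129/OLA, and cells were kept in serum with LIF on gelatin. Doxorubicin was given for 6 hours at 1 μM according to the treatment protocol and the study's methods, whereas the treatment label of the treated samples gives 1 mM. Each group held 2 biological replicates, each sequenced in 2 technical replicates that were summed here, so that n = 2 per group. Technical replicates 1 and 2 are called runs 1 and 2 below, by their number alone. The sources used here do not say whether the Cfp1-/- cells are more than 1 clone, nor that they share their parental line with the WT cells, and the loss of Cfp1 therefore cannot be told apart from other differences between the lines. Neither do the sources say what separates biological replicates, and p-values measure the spread between these libraries alone.

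CDK inhibitors are small proteins that hold back the kinases driving the cell cycle. Cip/Kip proteins bind cyclin and kinase together and act mainly on CDK2 complexes, whereas INK4 proteins bind CDK4 and CDK6 and keep them from D-type cyclins. CDK activity phosphorylates the pocket proteins (Rb1 and its relatives), which otherwise restrain E2F transcription factors. Cdkn1a is a classical target of p53, the factor that DNA damage stabilises, and doxorubicin damages DNA by trapping topoisomerase II. Mouse ES cells cycle fast with a short G1 phase. Cfp1, encoded by Cxxc1, binds unmethylated CpG and is part of the Set1 complexes that methylate H3K4.

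Total counts per biological replicate ranged from 14880589 to 29422711. Cxxc1 was counted 616 to 1412 times in each WT library and 1 to 5 times in each Cfp1-/- library, the genotypes being those of the labels. Mdm2, a p53 target that serves as a check of the drug response, lay between 4524 and 5962 normalized counts in the 4 untreated libraries and between 24881 and 32818 in the 4 treated ones. The normalized count is the authors' count divided by a size factor of the library. All 9 ES cell markers examined were detected, and their summed level was 68495 to 92163 normalized counts in untreated WT, 26465 to 35213 in treated WT, 73304 to 73521 in untreated Cfp1-/- and 24467 to 32052 in treated Cfp1-/- cells. The 6 primitive endoderm markers summed to 64.6 to 101.9, 273.6 to 293.4, 218.8 to 232.4 and 526.3 to 558.6 normalized counts in these groups, and the 7 fibroblast markers to 222.0 to 242.1, 361.2 to 514.8, 74.2 to 83.7 and 301.3 to 359.6, with 1 to 2 of the 7 at 3 counts or fewer in both libraries of a group. The 5 mesoderm markers summed to at most 574.8, the 4 neural ectoderm markers of the table to 2161 to 4913 and the 4 trophoblast markers to at most 205.3 in any library. The part of these shifts in the results was not tested. In bulk RNA, fewer cells that express a gene and less of its RNA per cell cannot be told apart.

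The start regions of the members were read from the NCBIM37 genome, the build of the deposited coordinates, at the GENCODE M1 transcript starts. The sequences below are the 250 bases before the annotated start of the 3 members that changed with the drug in both lines, 5′ to 3′ on the coding strand, with each CpG, the dinucleotide that Cfp1 reads when it is unmethylated, in capitals. They lie at chr17:29227674-29227923 (+ strand), chr6:134870169-134870418 (+) and chr4:88956942-88957191 (- strand), and for Cdkn1a the most upstream of 3 starts is shown.
Cdkn1a: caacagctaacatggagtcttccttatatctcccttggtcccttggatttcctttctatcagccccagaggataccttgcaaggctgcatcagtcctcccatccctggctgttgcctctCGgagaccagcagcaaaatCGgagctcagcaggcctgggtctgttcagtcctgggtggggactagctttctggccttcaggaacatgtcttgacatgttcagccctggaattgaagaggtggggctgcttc
Cdkn1b: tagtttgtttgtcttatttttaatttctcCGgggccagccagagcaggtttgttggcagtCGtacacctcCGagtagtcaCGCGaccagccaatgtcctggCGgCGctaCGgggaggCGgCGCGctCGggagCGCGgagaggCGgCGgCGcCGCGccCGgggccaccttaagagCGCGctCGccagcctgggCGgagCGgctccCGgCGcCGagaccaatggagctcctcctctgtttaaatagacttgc
Cdkn2b: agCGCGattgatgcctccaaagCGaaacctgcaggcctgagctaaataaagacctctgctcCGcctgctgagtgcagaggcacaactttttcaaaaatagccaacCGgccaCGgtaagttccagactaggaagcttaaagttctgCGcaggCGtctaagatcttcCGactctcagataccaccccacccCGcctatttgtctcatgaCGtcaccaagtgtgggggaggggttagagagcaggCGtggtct
The windows differed in CpG. In the 300 bases from 250 before a start to 50 after it, Cdkn1b had 30 CpG and Cdkn2b 18, whereas the upstream start of Cdkn1a had 2 and its next start, at position 29230717, 23. The median over the 59944 starts of the tested genes was 13, with quartiles of 5 and 25.

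The p53 response element of 20 bases was searched with the 4-base core of each of its 10-base units intact, no spacer and at most 1 mismatch elsewhere. This motif is its own reverse complement, so both strands were covered, and no other motif was searched. It occurred in the 300-base window of 13 of the 59944 starts, or 0.0217%, and Cdkn1a was the single member with it there, 51 to 32 bases before the upstream start at chr17:29227873-29227892. Within 3000 bases of a start on either side, 1.45% of the tested genes had it, among them Cdkn1a and also Cdkn2b, in its intron at chr4:88954309-88954328, 2613 to 2632 bases downstream of the start. Both matches are printed with 20 bases on each side, the element in capitals. They are descriptions of sequence, and binding was not measured here. The study itself reports more phosphorylated p53 at the Cdkn1a locus after doxorubicin in WT cells, and describes p53 binding there as alike in both lines.
Cdkn1a element: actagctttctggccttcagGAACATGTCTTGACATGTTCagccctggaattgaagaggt
Cdkn2b element: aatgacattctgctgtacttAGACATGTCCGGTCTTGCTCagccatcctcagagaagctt

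**Figure D1:**
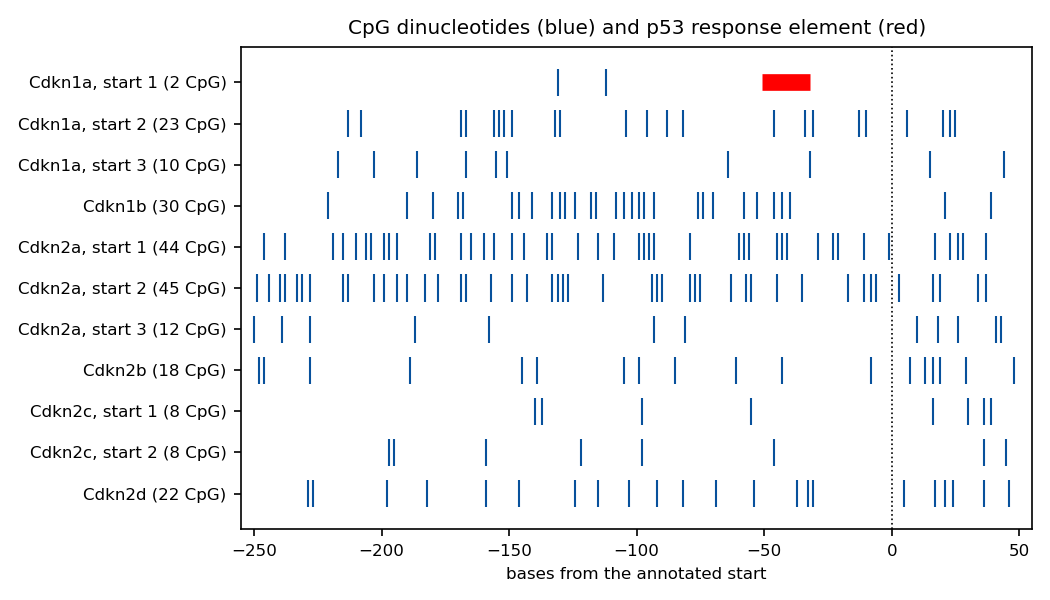
CpG dinucleotides (blue ticks) and the p53 response element (red bar) by distance in bases from each annotated start of 6 of the 7 genes, without Cdkn1c, with starts numbered in the direction of transcription. The upstream start of Cdkn1a has 2 CpG and the element, and the upstream starts of Cdkn2a have 44 and 45 CpG.

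Doxorubicin changed 3 of the 6 inhibitor genes tested in WT cells and 4 of 6 in Cfp1-/- cells. Cdkn1a and Cdkn2b rose and Cdkn1b fell in both lines, and Cdkn1c rose in Cfp1-/- cells. In WT cells Cdkn1c rose 2.07-fold but was not called (edgeR adjusted p = 0.0630). Its 2 responses were not called different from each other (adjusted p = 0.579). Called means a Benjamini-Hochberg adjusted p under 0.05 in edgeR's quasi-likelihood test over 15758 genes. In WT cells 2 members were called higher and 1 lower, where 26.5% of all tested genes were called higher and 21.8% lower. In Cfp1-/- cells 3 were called higher and 1 lower, beside 27.8% and 21.0% of all genes. Scaling to total counts shifted the median of all genes by 0.31, 0.21, 0.19 and 0.09 on the log2 scale in the WT response, the Cfp1-/- response and the line comparisons without and with drug, and by -0.10 in the difference of the responses. It moved the shares called higher and lower to 36.4% and 11.7% in WT and to 33.4% and 13.1% in Cfp1-/- cells. All of these calls also passed the study's limits of a 2.5-fold change and a mean of 200 normalized counts, which 7.91% of all genes passed in WT and 7.61% in Cfp1-/- cells. Libraries of treated and untreated cells did not overlap for 3 of 6 members in WT and 5 of 6 in Cfp1-/- cells, which was the case for 73.5% and 77.5% of all genes.

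**Figure D2:**
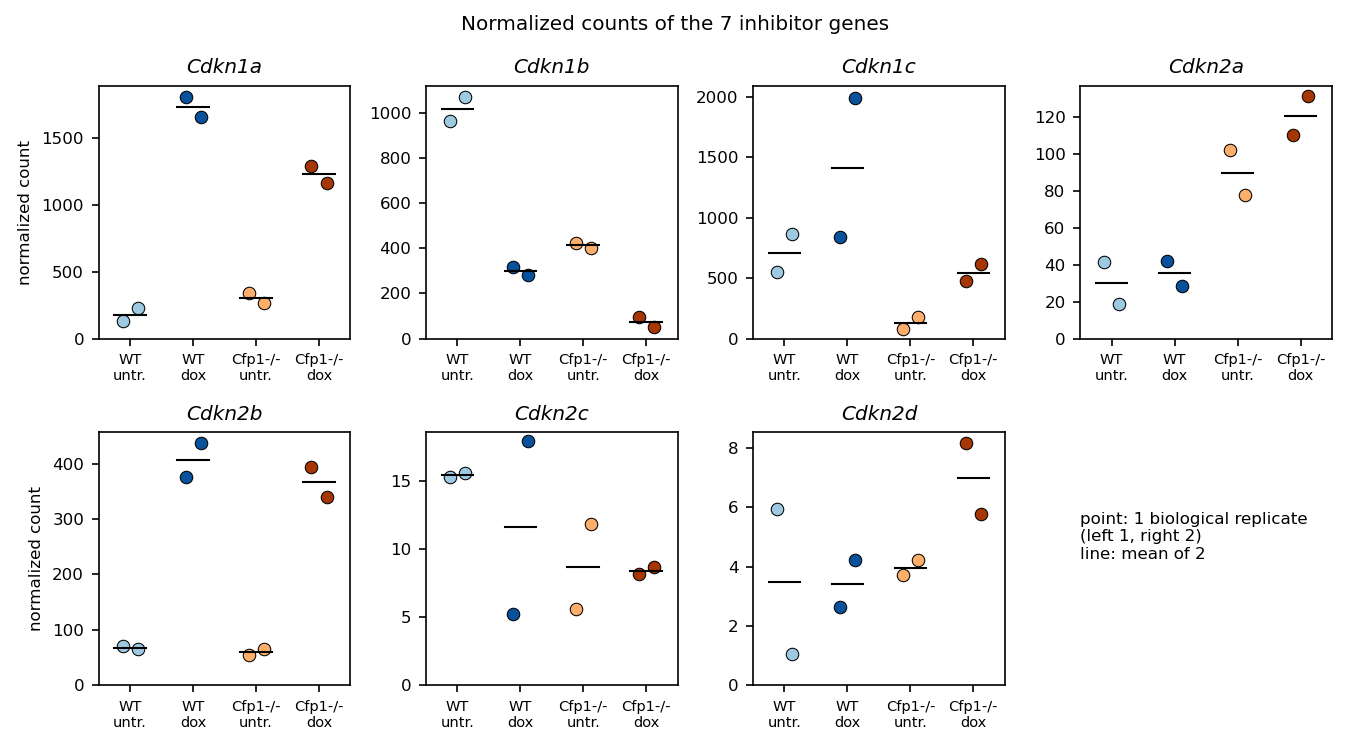
Normalized counts of each gene in each biological replicate (points) with the mean of 2 (lines), on linear axes that start at 0. Cdkn1a and Cdkn2b sit higher in every treated library than in every untreated one, Cdkn1b lower within each line, and Cdkn2a higher in every Cfp1-/- library than in every WT library.

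Cdkn1a (ENSMUSG00000023067, chromosome 17, 29227924 to 29237667) encodes p21, the inhibitor through which p53 halts the cell cycle. It measured 131 and 226 normalized counts in untreated WT, 1805 and 1655 in treated WT, 338 and 263 in untreated Cfp1-/- and 1294 and 1165 in treated Cfp1-/- libraries. Every treated library lay above every untreated one. The rise was 10.1-fold in WT (log2 fold change 3.33 ± 0.26 SE, adjusted p = 1.30e-05) and 4.21-fold in Cfp1-/- cells (2.07 ± 0.24, adjusted p = 0.000124). The starting level was higher without Cfp1, by 1.73-fold (0.79 ± 0.25, adjusted p = 0.0336), a call that was lost without WT untreated replicate 1 (0.45, adjusted p = 0.180), without Cfp1-/- untreated replicate 1 (0.61, adjusted p = 0.171), without either Cfp1-/- doxorubicin replicate (adjusted p = 0.0518 and 0.0515) and with only the untreated groups in the fit (adjusted p = 0.0758). With doxorubicin the difference was -0.47 ± 0.23 (adjusted p = 0.161), with both Cfp1-/- libraries below both WT libraries.

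Cdkn1b (ENSMUSG00000003031, chromosome 6, 134870419 to 134875531) encodes p27, which holds resting cells out of the cycle. It moved opposite to Cdkn1a. The counts were 964 and 1071 in untreated WT, 317 and 281 in treated WT, 425 and 404 in untreated Cfp1-/- and 94.0 and 53 in treated Cfp1-/- libraries. None of the 4 groups overlapped, with untreated WT highest, untreated Cfp1-/- next, then treated WT and last treated Cfp1-/-. Doxorubicin lowered Cdkn1b 3.30-fold in WT (-1.72 ± 0.24, adjusted p = 0.000313) and 5.48-fold in Cfp1-/- cells (-2.45 ± 0.26, adjusted p = 6.64e-05). Cfp1-/- cells had 2.41-fold less without drug (-1.27 ± 0.23, adjusted p = 0.00320) and 4.0-fold less with it (-2.00 ± 0.26, adjusted p = 0.00100).

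Cdkn1c (ENSMUSG00000037664, chromosome 7, 150644255 to 150646955) encodes p57 and is an imprinted gene, expressed from the maternal copy. It measured 554 and 861 normalized counts in untreated WT, 836 and 1993 in treated WT, 82.5 and 176 in untreated Cfp1-/- and 474 and 613 in treated Cfp1-/- libraries. In each of the 4 groups replicate 2 held more than replicate 1, and the WT groups overlapped. The WT response of 2.07-fold did not pass the test (1.05 ± 0.42, adjusted p = 0.0630). It passed with the replicate number as a block (0.97 ± 0.20, adjusted p = 0.00122), with total counts (adjusted p = 0.0242), in DESeq2 (adjusted p = 0.0284), without the filter on low counts (adjusted p = 0.0148), in the runs numbered 1 alone (adjusted p = 0.0398), and without WT doxorubicin replicate 1 or either untreated Cfp1-/- replicate (adjusted p = 0.00888, 0.0496 and 0.0478). Without WT doxorubicin replicate 2 it was 0.28 (adjusted p = 0.596). In Cfp1-/- cells Cdkn1c rose 4.32-fold (2.11 ± 0.45, adjusted p = 0.00383), and there the groups did not overlap.

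Between lines Cdkn1c showed the largest difference of the 6 tested members without drug, 5.35-fold lower in Cfp1-/- cells (-2.42 ± 0.45, adjusted p = 0.00357). With doxorubicin it was 2.56-fold lower (-1.36 ± 0.42, adjusted p = 0.0414). This call was lost without WT doxorubicin replicate 2 (-0.60, adjusted p = 0.318), without either Cfp1-/- doxorubicin replicate (adjusted p = 0.194 and 0.122) and with total counts (adjusted p = 0.0553).

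Cdkn2a (ENSMUSG00000044303, chromosome 4, 88920377 to 88940557) encodes p16Ink4a and, from another start and reading frame, p19Arf, which stabilises p53. The deposited counts sum both transcripts. They were 41.6 and 18.8 normalized counts in untreated WT, 41.9 and 28.5 in treated WT, 102.0 and 77.8 in untreated Cfp1-/- and 110.3 and 131.1 in treated Cfp1-/- libraries, and all 4 Cfp1-/- libraries lay above all 4 WT libraries. Cdkn2a was 2.99-fold higher in Cfp1-/- than in WT cells without drug (1.58 ± 0.40, adjusted p = 0.0144) and 3.5-fold higher with it (1.81 ± 0.41, adjusted p = 0.0114). The untreated call was lost without WT untreated replicate 2 (1.13, adjusted p = 0.0767) or Cfp1-/- untreated replicate 1 (1.39, adjusted p = 0.0814), and the call with drug without WT doxorubicin replicate 2 (1.54, adjusted p = 0.0745) or Cfp1-/- doxorubicin replicate 2 (1.69, adjusted p = 0.0678). The response to doxorubicin was 0.24 ± 0.43 in WT (adjusted p = 0.672) and 0.47 ± 0.37 in Cfp1-/- cells (adjusted p = 0.330).

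Cdkn2b (ENSMUSG00000073802, chromosome 4, 88952198 to 88956941) lies 11641 bases from Cdkn2a and encodes p15, an inhibitor of CDK4 and CDK6 known as a target of TGF-beta signalling. Its counts were 70.5 and 64.6 in untreated WT, 376 and 437 in treated WT, 53.8 and 64.2 in untreated Cfp1-/- and 394 and 340 in treated Cfp1-/- libraries. Treated libraries formed a range well above the untreated ones, and lines overlapped within the treated ones. The rise was 6.20-fold in WT (2.63 ± 0.23, adjusted p = 2.21e-05) and 6.40-fold in Cfp1-/- cells (2.68 ± 0.23, adjusted p = 2.26e-05). Between lines it differed by -0.17 ± 0.23 without drug (adjusted p = 0.603) and by -0.12 ± 0.21 with it (adjusted p = 0.691).

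Cdkn2c (ENSMUSG00000028551, chromosome 4, 109333481 to 109339794) encodes p18. It had 15.3 and 15.6 normalized counts in untreated WT, 5.24 and 18.0 in treated WT, 5.56 and 11.8 in untreated Cfp1-/- and 8.17 and 8.68 in treated Cfp1-/- libraries. Its log2 differences in the 4 comparisons ran from -0.78 ± 0.61 (untreated Cfp1-/- against WT, adjusted p = 0.345) to -0.01 ± 0.65 (response in Cfp1-/- cells, adjusted p = 0.988). With standard errors of 0.61 to 0.65 on the log2 scale, differences of the size measured were not detectable at this depth. Cdkn2d (ENSMUSG00000066860, chromosome 9, 21092907 to 21095653), which encodes p19Ink4d, had 1 to 8 raw counts per library. It failed the filter on low counts and was not tested.

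**Figure D3:**
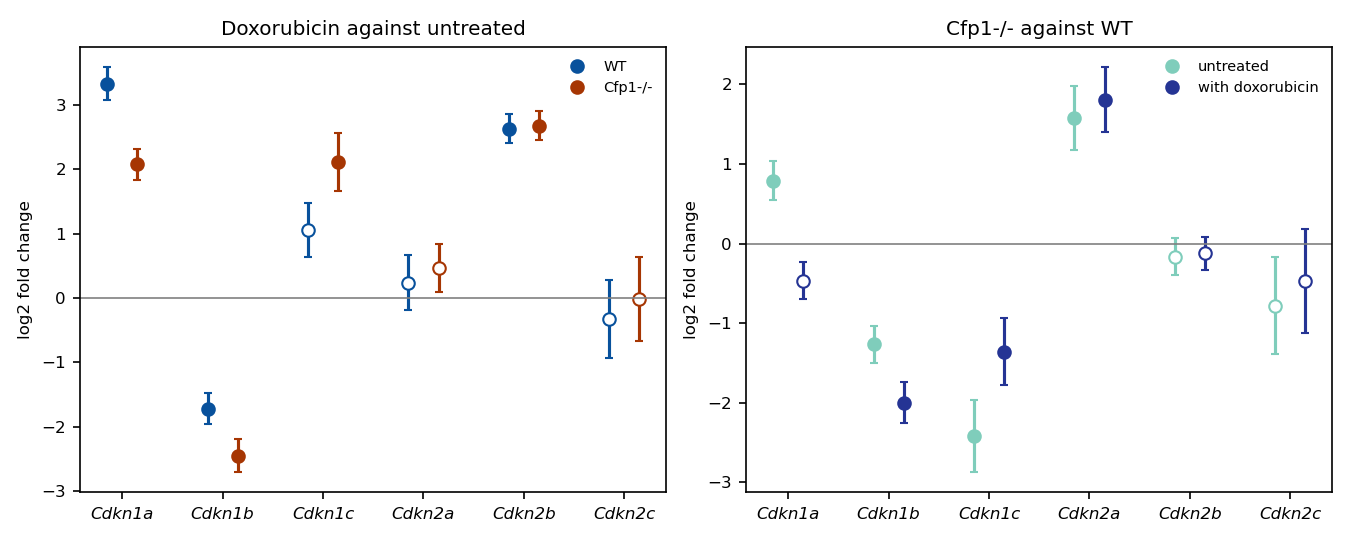
Log2 fold changes with SE of the 6 tested genes, for doxorubicin against untreated cells of each line (left) and for Cfp1-/- against WT cells without and with drug (right), with filled points called at an adjusted p under 0.05. Cdkn1a and Cdkn2b lie above 2 in both lines, Cdkn1b lies below -1.5 in both, and Cdkn1b and Cdkn1c lie below -1 in both line comparisons.

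Between the lines, 2 members were called higher and 2 lower in untreated Cfp1-/- cells, beside 17.9% and 16.1% of all tested genes, or 24.4% and 10.2% with total counts. With doxorubicin 1 was called higher and 2 lower, beside 15.1% and 10.8%, or 17.9% and 7.96% with total counts. Of these, Cdkn1c alone passed the study's limits in each state, as did 3.33% and 2.61% of all genes. Cdkn1b with doxorubicin (mean 186) and Cdkn2a without and with it (means 60.0 and 78.0) passed 2.5-fold but not the mean of 200 normalized counts. Without drug the lines did not overlap for any of the 6 members, which held for 69.9% of all genes, and with drug for 4 of 6, against 65.0%. Both line comparisons and both responses use the same libraries and are not independent of each other.

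Whether the drug response itself differed between the lines was tested as an interaction. By edgeR no member was called, beside 0.235% of all genes, and 1 had an unadjusted p under 0.05. This was Cdkn1a, whose log2 response was smaller in Cfp1-/- than in WT cells by 1.26 ± 0.34, which gives -1.26 for the Cfp1-/- response minus that of WT (unadjusted p = 0.00419, adjusted p = 0.229). DESeq2's Wald test called it with an adjusted p of 0.0403, the lowest over the alternatives, of which the highest was 0.537. The differences were -0.73 ± 0.34 for Cdkn1b (adjusted p = 0.491), 1.06 ± 0.61 for Cdkn1c (adjusted p = 0.579), 0.23 ± 0.57 for Cdkn2a (adjusted p = 0.933), 0.05 ± 0.31 for Cdkn2b (adjusted p = 0.980) and 0.31 ± 0.90 for Cdkn2c (adjusted p = 0.942). The intervals are too wide to show that the lines respond alike.

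Divided by exon length, the counts can be compared between genes. In untreated WT cells Cdkn1c led with 366 normalized counts per kb of exon (287 to 446), ahead of Cdkn1b at 223 (212 to 235), Cdkn1a at 80.3 (58.8 to 101.8), Cdkn2b at 48.5 (46.4 to 50.6), Cdkn2a at 25.8 (16 to 35.6), Cdkn2c at 5.76 and Cdkn2d at 2.75, and no neighbours in this order overlapped. After doxorubicin Cdkn1a led in WT cells at 778 (745 to 812), overlapping Cdkn1c at 732 (433 to 1032), and was followed by Cdkn2b at 292 (270 to 314) and Cdkn1b at 65.7 (61.7 to 69.6), with Cdkn2a at 30.1, Cdkn2c at 4.32 and Cdkn2d at 2.69. Cdkn2c (1.95 to 6.69) and Cdkn2d (2.06 to 3.32) overlapped. Cdkn1b thus stood above Cdkn1a and Cdkn2b without the drug and below both with it.

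In untreated Cfp1-/- cells Cdkn1a led at 135 per kb (118 to 152), before Cdkn1b at 91.0 (88.7 to 93.3), Cdkn2a at 76.8 (66.5 to 87.2), Cdkn1c at 66.9 (42.7 to 91.0) and Cdkn2b at 42.4 (38.6 to 46.1). Cdkn1c overlapped each of the 3 genes beside it there, and Cdkn2c and Cdkn2d, at 3.24 and 3.12, overlapped each other. With doxorubicin Cdkn1a stood at 553 (524 to 582), Cdkn1c at 281 (245 to 318) and Cdkn2b at 264 (244 to 283), of which the last pair overlapped, followed by Cdkn2a at 103 (94.3 to 112.1), Cdkn1b at 16.1 (11.6 to 20.6), Cdkn2d at 5.49 and Cdkn2c at 3.14. Cdkn1b stood below Cdkn2a in treated Cfp1-/- cells and above it in both WT groups. In untreated Cfp1-/- cells their order turned with the length used, since per kb of the longest transcript Cdkn2a had 96.7 normalized counts and Cdkn1b 91.0.

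Summed over the 7 genes, the level per kb was 654 and 852 in untreated WT, 1624 and 2187 in treated WT, 419 and 418 in untreated Cfp1-/- and 1235 and 1217 in treated Cfp1-/- libraries. Every treated library lay above every untreated one. Cdkn1b supplied 32.4% and 27.6% of the sum in untreated WT, 4.29% and 2.82% in treated WT, 22.3% and 21.2% in untreated Cfp1-/- and 1.67% and 0.957% in treated Cfp1-/- libraries. Cdkn1a supplied 9.0% and 11.9%, 50.0% and 34.0%, 36.3% and 28.3%, and 47.1% and 43.0% in the same order. These shares are descriptions of RNA, with no test, and say nothing of protein.

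**Figure D4:**
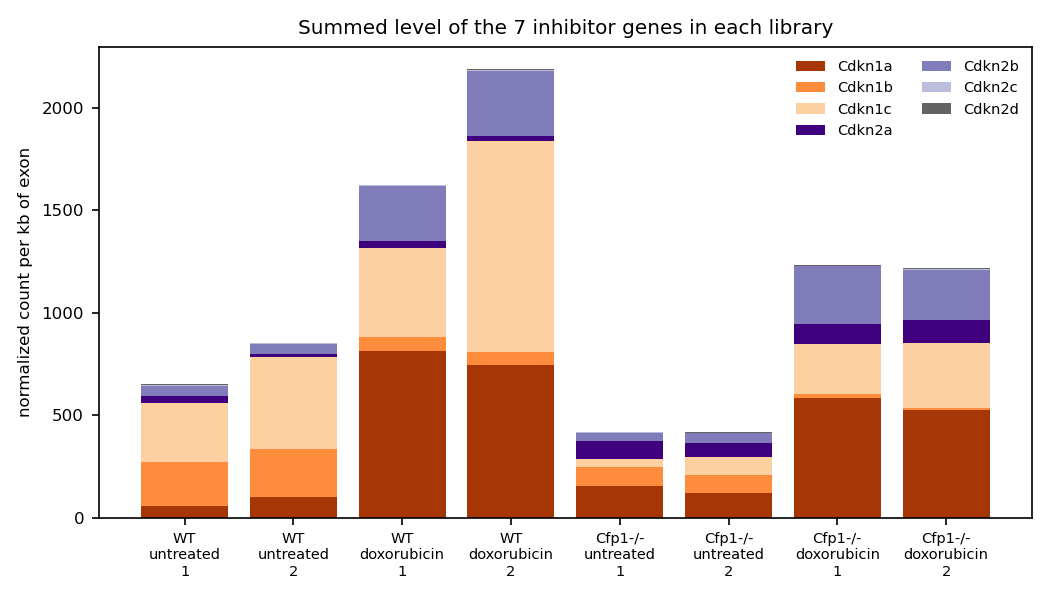
Normalized counts per kb of exon, stacked over the 7 genes, for each of the 8 libraries. The stack rises from 654 and 852 to 1624 and 2187 in WT and from 419 and 418 to 1235 and 1217 in Cfp1-/- cells, with the band of Cdkn1b narrowing in both lines.

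The kinases and cyclins that these inhibitors hold, a list of 13 genes, moved mostly down with the drug. In WT cells 8 fell and 1 rose, with a median log2 fold change of -0.89 over the list beside 0.06 over all tested genes. In Cfp1-/- cells 8 fell and 1 rose as well, with a median of -0.79 beside 0.01. Over all tested genes 21.8% were called lower and 26.5% higher in WT, and 21.0% and 27.8% in Cfp1-/- cells. Cdk6, a target of the INK4 proteins, fell in WT (-2.04 ± 0.19, adjusted p = 3.24e-05) and in Cfp1-/- cells (-1.88 ± 0.19, adjusted p = 6.00e-05). Cyclin E1 (Ccne1), a partner of CDK2, fell by 1.52 on the log2 scale in WT cells (SE 0.15, adjusted p = 4.22e-05), and Ccnb1, of the mitotic cyclin B1 and the list's most abundant gene per kb, by 1.37 (SE 0.18, adjusted p = 0.000216). The gene that rose was Ccna1, a cyclin A known from the germline (1.89 ± 0.44 in WT, adjusted p = 0.00589). Its level was low, with a mean of 7.05 normalized counts in untreated and 25.8 in treated WT cells. In untreated Cfp1-/- against WT cells 8 were lower and 2 higher, where 16.1% of all genes were lower and 17.9% higher. The largest of these changes was that of Ccnd2, which encodes cyclin D2 (-2.94 ± 0.54, adjusted p = 0.00339). With doxorubicin 6 were lower and 1 higher, beside 10.8% and 15.1% of all genes. The number lower was 4 in the untreated comparison without WT untreated replicate 2 or Cfp1-/- untreated replicate 1, 5 with total counts, and 2 in the treated comparison without Cfp1-/- doxorubicin replicate 2. The 2 that were higher without drug became 1 or 0 when any untreated library was left out.

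Of the 13 pocket protein and E2F genes, 4 rose and 4 fell in each line, or 5 and 1 in WT and 4 and 2 in Cfp1-/- cells with total counts. Rbl2, which encodes p130, rose by 3.67 ± 0.20 in WT (adjusted p = 2.76e-06) and 3.11 ± 0.19 in Cfp1-/- cells (adjusted p = 5.46e-06). Rb1 rose by 2.77 ± 0.19 (adjusted p = 7.69e-06) and 2.20 ± 0.19 (adjusted p = 2.22e-05), and E2f1 by 1.71 ± 0.29 (adjusted p = 0.000951) and 1.40 ± 0.28 (adjusted p = 0.00293). These pocket proteins restrain E2F factors when CDK activity is low. These counts are near the shares over all genes, 26.5% higher and 21.8% lower in WT and 27.8% and 21.0% in Cfp1-/- cells. The list's medians were -0.28 in WT and -0.29 in Cfp1-/- cells, beside 0.06 and 0.01 over all tested genes. For the line comparisons below, the shares over all genes were 16.1% lower and 17.9% higher without drug, and 10.8% and 15.1% with it. The 4 that fell in Cfp1-/- cells became 2 without either untreated Cfp1-/- replicate and 1 without Cfp1-/- doxorubicin replicate 2. Between lines 5 genes were lower and 1 higher without drug, with 3 lower under total counts or without WT untreated replicate 2 or Cfp1-/- untreated replicate 2, and 6 lower with it, or 3 without WT doxorubicin replicate 2 and 1 without Cfp1-/- doxorubicin replicate 2. E2f2 differed by -2.48 ± 0.44 without drug (adjusted p = 0.00282) and by -2.00 ± 0.46 with it (adjusted p = 0.0122), the latter call being lost without WT doxorubicin replicate 1 or Cfp1-/- doxorubicin replicate 2.

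Next were 11 genes listed for the clearing of Cip/Kip proteins by ubiquitin ligases, with Pcna, not a ligase gene itself, among them. Of these, 4 fell and 2 rose in WT cells and 5 fell and 2 rose in Cfp1-/- cells. The medians were -0.32 and -0.48, beside 0.06 and 0.01 and the same shares called over all genes. Between the lines those shares were 16.1% lower and 17.9% higher without drug, and 10.8% and 15.1% with it. The 2 that rose in WT became 1 without either WT untreated replicate or WT doxorubicin replicate 2. Skp2, whose product marks p27 for degradation, fell by 1.53 on the log2 scale in WT (SE 0.14, adjusted p = 3.24e-05) and fell by 1.51 in Cfp1-/- cells (SE 0.14, adjusted p = 4.05e-05). Rnf123, which serves the same protein in the cytoplasm, rose by 1.21 ± 0.24 (adjusted p = 0.00256) and 1.58 ± 0.24 (adjusted p = 0.000584). Between the lines 4 were lower and 1 higher in each state, the latter becoming 0 in the untreated comparison without either WT untreated replicate or Cfp1-/- untreated replicate 2, and 2 in the treated one without Cfp1-/- doxorubicin replicate 1.

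Of 17 genes known to activate inhibitor genes, 6 rose and 6 fell in WT and 6 rose and 7 fell in Cfp1-/- cells, or 7 and 4 and 6 and 4 with total counts. Trp73, a relative of p53, rose by 4.81 ± 0.24 in WT (adjusted p = 1.89e-06) and by 4.05 ± 0.23 in Cfp1-/- cells (adjusted p = 4.12e-06). Ets1 rose by 2.59 ± 0.41 (adjusted p = 0.000742) and 3.52 ± 0.43 (adjusted p = 0.000173). Smad3, which carries TGF-beta signals, rose by 2.18 ± 0.15 in WT (adjusted p = 8.35e-06) and by 2.11 ± 0.15 in Cfp1-/- cells (adjusted p = 1.08e-05). Over all genes 26.5% were called higher and 21.8% lower in WT and 27.8% and 21.0% in Cfp1-/- cells. The list's medians were 0.06 and -0.21, beside 0.06 and 0.01 over all genes. The 7 that fell in Cfp1-/- cells became 4 without Cfp1-/- untreated replicate 1 or Cfp1-/- doxorubicin replicate 2. Between lines 3 genes were higher and 2 lower without drug, or 4 and 1 with total counts, and 1 and 1 with it, where 17.9% of all genes were higher and 16.1% lower without drug and 15.1% and 10.8% with it. With the replicate number as a block, 5 were higher and 5 lower without drug. The 2 that were lower became 1 when any untreated library was left out, and with drug the 1 that was higher was lost without either Cfp1-/- doxorubicin replicate and the 1 that was lower without replicate 1 of that group. The largest called line difference without drug was that of Trp63, 5.57 ± 0.80 (adjusted p = 0.00104), at a mean of 4.70 normalized counts per kb. Klf6 followed with -1.95 ± 0.43 (adjusted p = 0.00731). With doxorubicin these were 2.51 ± 0.60 (adjusted p = 0.0143) and -2.34 ± 0.45 (adjusted p = 0.00577). Trp53 itself, which encodes p53, was 0.95 ± 0.15 higher in untreated Cfp1-/- than WT cells on the log2 scale (adjusted p = 0.00159). With doxorubicin the lines differed by 0.34 ± 0.15 (adjusted p = 0.118). The response of Trp53 to the drug was -0.51 ± 0.15 in Cfp1-/- cells (adjusted p = 0.0173) and 0.10 ± 0.15 in WT (adjusted p = 0.626). The difference between these responses was not called in the interaction test.

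Repressors of inhibitor genes, which include Myc factors, Polycomb proteins and T-box factors, were represented by 17 tested genes. In WT cells 10 fell and 2 rose and in Cfp1-/- cells 9 fell and 1 rose, with medians of -0.75 and -0.49, beside 0.06 and 0.01 over all genes, of which 21.8% and 21.0% were called lower. In WT the number that fell was 6 with total counts, 5 without WT untreated replicate 1 and 6 without WT doxorubicin replicate 2, and in Cfp1-/- cells it was 4 without Cfp1-/- doxorubicin replicate 2. The 2 that rose in WT became 1 without WT untreated replicate 2 or WT doxorubicin replicate 1. Mycn fell by 2.25 in WT (SE 0.19, adjusted p = 2.31e-05) and by 4.02 in Cfp1-/- cells (SE 0.22, adjusted p = 3.92e-06). Eed, a Polycomb subunit and the list's most abundant gene per kb, fell by 0.75 in WT (SE 0.15, adjusted p = 0.00266). Tbx2, which represses Cdkn2a and Cdkn1a in other cells, rose by 4.32 ± 0.60 (adjusted p = 0.000313) and 3.44 ± 0.39 (adjusted p = 0.000111). Its mean level over the 8 libraries was low, 13.5 normalized counts per kb of exon. Between lines 4 were higher and 4 lower without drug, where 17.9% of all genes were higher and 16.1% lower. With drug 4 were higher and 2 lower, beside 15.1% and 10.8% of all genes, or 5 lower with the replicate block. The number higher without drug was 2 without WT untreated replicate 2 and 1 without Cfp1-/- untreated replicate 1, and with drug it was 1 without WT doxorubicin replicate 2 or Cfp1-/- doxorubicin replicate 1. The 4 lower without drug became 2 without Cfp1-/- untreated replicate 2. Tbx3 was higher in untreated Cfp1-/- cells by 3.40 ± 0.78 (adjusted p = 0.00923), a call lost without Cfp1-/- untreated replicate 1 (adjusted p = 0.0508), and Id1 was lower by 2.56 ± 0.47 (adjusted p = 0.00328).

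**Figure D5:**
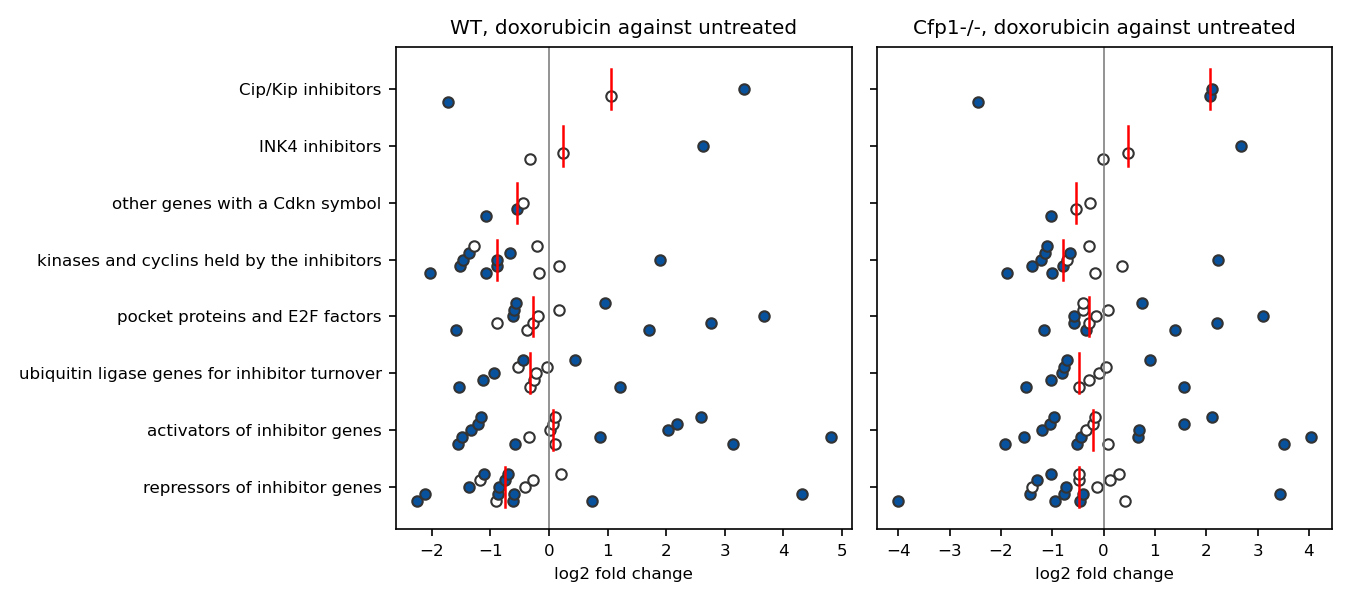
Log2 fold change to doxorubicin of each tested gene (points, filled when called) in the inhibitor families and the pathway lists, in WT (left) and Cfp1-/- cells (right), with red bars at the list medians. The medians of the kinases and cyclins lie at -0.89 and -0.79 and those of the repressors at -0.75 and -0.49.

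Other genes with a Cdkn symbol are not inhibitors of these families. Cdkn3, which encodes a phosphatase of CDKs, fell with the drug by 1.07 in WT (SE 0.27, adjusted p = 0.00838) and by 1.02 in Cfp1-/- cells (SE 0.27, adjusted p = 0.0104), the latter call being lost without Cfp1-/- untreated replicate 1 or Cfp1-/- doxorubicin replicate 2. Cdkn2aip, whose product binds p19Arf, was lower in Cfp1-/- than in WT cells by 0.89 without drug (SE 0.20, adjusted p = 0.00901) and by 0.99 with it (SE 0.21, adjusted p = 0.00884). The untreated call was lost without WT untreated replicate 2 (adjusted p = 0.0516) or Cfp1-/- untreated replicate 1 (adjusted p = 0.0615), and the treated call without WT doxorubicin replicate 2 (adjusted p = 0.0570) or Cfp1-/- doxorubicin replicate 2 (adjusted p = 0.0747).

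The genes next to the members did not all move with them. Beside Cdkn1a, Rab44 lay 34334 bases downstream and rose from a mean of 0.425 to 80.8 normalized counts in WT (adjusted p = 0.00011) and from 5.19 to 127.7 in Cfp1-/- cells (adjusted p = 0.000173), whereas Srsf3, on the other side, fell by 1.61 (SE 0.15, adjusted p = 3.00e-05) and 1.16 (SE 0.15, adjusted p = 0.000194). Slc22a18, 12671 bases from Cdkn1c and imprinted like it, rose with the drug by 3.07 ± 0.50 and 2.03 ± 0.40. It was higher in untreated Cfp1-/- than WT cells, by 1.98 ± 0.52 (adjusted p = 0.0165), where Cdkn1c was lower. This rests on 3 to 70 counts per library, and the call was lost in the runs numbered 1 alone (adjusted p = 0.0802), without WT untreated replicate 1 (adjusted p = 0.110) and without Cfp1-/- untreated replicate 2 (adjusted p = 0.0675). Phlda2, another imprinted neighbour of Cdkn1c, differed between untreated lines by -0.68 ± 0.25 (adjusted p = 0.0615). Kcnq1, on the other side of Cdkn1c with 4 to 18 counts per library, rose with the drug by 1.66 ± 0.52 in WT (adjusted p = 0.0255). In Cfp1-/- cells Kcnq1 rose by 2.17 ± 0.55 (adjusted p = 0.00886). The WT call was lost in DESeq2 (adjusted p = 0.138) and the other in the runs numbered 1 alone (adjusted p = 0.0625). The WT call was also lost without WT untreated replicate 1 (1.41), WT untreated replicate 2 (1.90) or WT doxorubicin replicate 1 (1.30). The Cfp1-/- call was also lost without Cfp1-/- untreated replicate 2 (1.94). Mtap, the nearest gene of the table on the other side of Cdkn2a, was higher in Cfp1-/- cells as Cdkn2a was, by 0.83 ± 0.15 without drug (adjusted p = 0.00284) and 1.05 ± 0.15 with it (adjusted p = 0.00162), and fell with the drug by 1.04 in WT (adjusted p = 0.000399) and by 0.82 in Cfp1-/- cells (adjusted p = 0.00150). Faf1 beside Cdkn2c and Kri1 beside Cdkn2d fell in both lines. Dmrta1 beside Cdkn2b was not called in any of these comparisons, with 4 to 18 counts per library. Gpr19 beside Cdkn1b fell by 0.78 in Cfp1-/- cells (SE 0.21, adjusted p = 0.0131), a call lost with total counts (adjusted p = 0.0549). This call was also lost without Cfp1-/- untreated replicate 1 (-0.72), Cfp1-/- doxorubicin replicate 1 (-0.77) or Cfp1-/- doxorubicin replicate 2 (-0.80). In WT Gpr19 changed by -0.14 ± 0.21 (adjusted p = 0.607), and Apold1, on the other side of Cdkn1b, was not called in either response.

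Genes whose log2 level followed a member most closely, up to 3 for each, were ranked by Pearson's r over the 8 libraries among those with a mean of 200 normalized counts. These r share the 4 groups and their contrasts and are given as description. Nat6, Scarb1 and Pkp3 followed Cdkn1a (r = 0.996, 0.992 and 0.991), Fzd7, Jub and Gtpbp6 followed Cdkn1b (r = 0.996, 0.993 and 0.993), and Rhoq and Zfp959 followed Cdkn1c (r = 0.984 and 0.982). For Cdkn2a they were Bin2, Ppp1r9b and Atp5j (r = 0.990, 0.989 and 0.988), for Cdkn2b Des and Slc33a1 (r = 0.997 and 0.996), and for the low-count Cdkn2c 2010107E04Rik, Lman2 and Bola3 (r = 0.960, 0.953 and 0.890). Among the members, Cdkn1a and Cdkn2b were the most alike (r = 0.944) and Cdkn1b ran opposite to Cdkn1a, Cdkn2a and Cdkn2b to about the same degree (r = -0.733, -0.732 and -0.730).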

How the data were processed

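RNA was sequenced from 16 samples, the 4 groups of 2 biological replicates with 2 technical replicates each, as rRNA-depleted stranded libraries. Per the labels, the authors aligned reads to mm9 (NCBIM37) with STAR 2.2.1, whereas the paper's methods name another version, and counted them over exons of Ensembl genes with HTSeq. The deposited counts are raw read counts per gene and technical replicate. The deposited signal is the authors' normalized count, the summed count of a biological replicate divided by a DESeq size factor. Transcripts that start at different sites of a gene are not told apart. The tables give Ensembl identifiers, of which 22324 of 22375 matched a symbol and exon length in the GENCODE M1 annotation.

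Raw counts of technical replicates were summed. In 6 of 8 pairs they differed as sampling noise would (chi-square per degree of freedom 0.998 to 1.05). It was 9.61 for WT doxorubicin replicate 1 and 42.9 for Cfp1-/- doxorubicin replicate 1. In the latter, 439 genes on chromosomes 19, X and Y with at least 200 counts in run 1 had none in run 2. These included 0 of the members, and the genes of the other lists were not checked for this loss. A fit without that run was among the alternatives. All 8 libraries entered 1 fit with edgeR 4.0.16 (R 4.3.3), with filterByExpr, TMM, a coefficient per group and the quasi-likelihood test. The common dispersion was 0.0304 and the residual degrees of freedom 4. Of 22375 genes, 15758 were tested, and p-values were adjusted over these by the Benjamini-Hochberg method. The SE of a log2 fold change was derived from the test statistic. DESeq2 1.42.0, other scalings, no filter, run choices, fits of only the groups compared and leaving out each library were alternatives. The fit was tested on simulated data, and figures were drawn with matplotlib 3.10.9. Same-numbered replicates deviated together (correlations of 0.140 to 0.451 in all 6 pairs of groups). The sources state no pairing, and the main fit has no block, so its SEs and calls leave this out. With the replicate number as a block, 8807 genes were called in the WT response and 243 in the difference of the responses. The main fit called 7607 and 37. The fit with the block is given where it changes a call.

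The members and lists were chosen with earlier results of these data known. All 7 members are described. Of each list, the genes with the largest change among those called and the gene with the highest level could be named, as well as the nearest genes beside each member, Mtap, Kcnq1, Phlda2 and Slc22a18, and the 3 genes most like a member. Of the last, some are not reported here, nor is the start region of Cdkn1c. Cdkn2aip and Cdkn3 come from the list of other Cdkn symbols. Fits for genes other than the members were also run under each alternative, which was chosen after seeing the data.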

Additional observations from a re-analysis of the deposited data

Results flagged for a closer look

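Of 145 named genes tested for a response that differs between the lines, Mycn alone was called by edgeR. Mycn, a Myc factor counted among the repressors of inhibitor genes, fell by 2.25 on the log2 scale with doxorubicin in WT cells and by 4.02 in Cfp1-/- cells. The difference, Cfp1-/- minus WT, was -1.76 ± 0.28 (SE, n = 2 per group, edgeR adjusted p = 0.0489). The call was lost under 10 of 15 alternatives, among them each of the 8 fits that left out a library, with values between -1.99 and -1.53 and adjusted p up to 0.248.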

How the results depend on the processing

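Of 468 repeats of a member's comparison under another setting, 424 kept direction and side of the threshold, 13 lost a call, 10 gained one and 21 changed sign, each of the last in a comparison that was not called. The cause was not tested. The count of members called between untreated lines, 4, ran from 2 to 4 when a library was left out and was 1 with the study's limits. The count with doxorubicin, 3, ran from 1 to 3 and was 1 with the limits. The lowest counts came without Cfp1-/- untreated replicate 1, and without WT doxorubicin replicate 2 or Cfp1-/- doxorubicin replicate 2. For the difference of the responses, DESeq2's Wald test called 1 member, Cdkn1a. With the replicate block the Cdkn2c response in Cfp1-/- cells was 0.022, and beside Cdkn1c in WT cells (0.97) the block changed no other call of a member. With total counts that Cdkn2c response was 0.20, the untreated Cdkn2b difference 0.025 and the Cdkn2b difference of the responses -0.057. In the runs numbered 1 alone the last 2 were 0.0195 and -0.13, and without run 2 of Cfp1-/- doxorubicin replicate 1 the last was -0.072. When a library was left out, its partner being taken to vary like the other groups, the Cdkn2a response in WT ran from -0.22 to 0.94, that of Cdkn2c from -1.50 to 0.26 in WT and from -0.45 to 0.61 in Cfp1-/- cells, and the treated Cdkn2c line difference from -1.06 to 0.69. The differences of the responses ran from -0.52 to 0.64 for Cdkn2a, from -0.087 to 0.17 for Cdkn2b and from -0.28 to 1.48 for Cdkn2c. Of 98 calls of other named genes, 69 held under every alternative run, 29 were lost under at least 1 and 0 were reversed. The low counts of Cdkn2c and Cdkn2d limit what can be said of them.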
